A study of Mus musculus with 64 samples.

Results

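The 10 genes described here are genes of the Leydig cell, the hormone-producing cell that lies between the seminiferous tubules of the testis. Apart from Insl3, the gene of a peptide hormone, they make or control its steroid hormones. All were taken by symbol from the 26385 genes of the RNA-Seq tables: Star, Cyp11a1, Hsd3b1, Hsd3b6, Cyp17a1, Hsd17b3, Akr1c14, Insl3, Lhcgr and Nr5a1. All 10 were found, and all 10 passed the filter on low counts in each comparison. The study asked how loss of MORC1, a germ line ATPase, affects transposon silencing in male mice, and its whole testis RNA also holds the RNA of Leydig cells, which was not its subject. Of its 47 RNA-Seq libraries, 27 came from whole testis and 20 from sorted germ cells, each from 1 mouse.

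The Morc1 line carried the Morc1 tg allele, a tyrosinase transgene insertion in FVB/N mice that removed exons 2 to 4 of Morc1. At P10.5 (P for postnatal day), it gave 3 Morc1 tg/tg libraries (labelled Morc1 KO), 2 Morc1 tg/+ libraries (Morc1 het) and 1 wild-type library, beside 1 wild-type and 1 Morc1 tg/+ library labelled preliminary. At P14.5, it gave 3 libraries each of Morc1 tg/tg and Morc1 tg/+. The Dnmt3l line, all at P10.5, gave 3 Dnmt3l-/- (DNMT3L KO), 3 heterozygous and 3 wild-type libraries. The Miwi2 line, also all at P10.5, gave 2 libraries labelled Miwi2 KO and 2 labelled Miwi2 het. No label names a Cre or a deletion limited to a cell type, and the strain of the last 2 lines was not given in the sources used here. The sorted libraries were Morc1 tg/tg and Morc1 tg/+ germ cells of 2 fetal days (E16.5 and E18.5) and of the postnatal days P2.5 and P10.5, made with another library kit. Up to P2.5 they were sorted by the green fluorescence of an Oct4-IRES-eGfp reporter on a mixed strain background, and at P10.5 by staining for EPCAM and MHC class I, so that stage goes with the sort and the background and these cannot be told apart.

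Leydig cells turn cholesterol into testosterone. Luteinizing hormone binds its receptor, LHCGR, the STAR protein carries cholesterol into the mitochondrion, and CYP11A1 cuts its side chain to give pregnenolone. The HSD3B enzymes, CYP17A1 and HSD17B3 then carry the product on to testosterone, and NR5A1 (SF-1) is the nuclear receptor that switches on most of these genes. The mouse testis has a fetal and an adult population of Leydig cells. The adult cells arise in the days after birth, and Hsd3b6 is used as their marker. Nr5a1 is also active in Sertoli cells, the nurse cells of the tubules, and Hsd17b3 is known from Sertoli cells of the fetal testis.

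In the mm9 build of the tables, Hsd3b1 and Hsd3b6 are neighbouring genes of one family on the minus strand of chromosome 3 (98656117 to 98663717 and 98609427 to 98618366). Reads were kept only if they mapped to 1 place, so that reads from any stretch identical in the 2 count for neither. Hsd17b3 lies at 64159582 to 64190509 on chromosome 13, Cyp17a1 at 46741655 to 46747464 on chromosome 19 and Star at 26918946 to 26925782 on chromosome 8. Insl3 lies at 74213113 to 74214474 on chromosome 8, and 404 of its 623 exon bases (64.8%) are also exon of Jak3 on the same strand. Reads there count for neither gene, and Insl3 had only 22 to 119 reads in a testis library, so that its values are uncertain. None of the other 9 genes shares exon bases with a neighbour.

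The upstream sequences below show the 250 bases before the transcription start of the pair Hsd3b1 and Hsd3b6, which moved in opposite directions between the 2 days, of Hsd17b3, which differed most in Dnmt3l-/- testes, and of Insl3. They are from RefSeq (GRCm38.p6), run 5′ to 3′ on the strand of the gene and lie at chr3:98859795-98860044, chr3:98814444-98814693, chr13:64089202-64089451 and chr8:71689002-71689251. Capitals mark matches on either strand to the core of the SF-1 motif, which was searched as CAAGGNC, or to the GATA factor motif, which was searched with the letters AGATAA. The 2 motifs did not overlap in these windows.
Hsd3b1: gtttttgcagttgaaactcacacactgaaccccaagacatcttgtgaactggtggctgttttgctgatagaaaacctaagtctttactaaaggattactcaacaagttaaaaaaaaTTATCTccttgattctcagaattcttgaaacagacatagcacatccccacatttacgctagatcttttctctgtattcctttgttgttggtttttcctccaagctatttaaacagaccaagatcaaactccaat
Hsd3b6: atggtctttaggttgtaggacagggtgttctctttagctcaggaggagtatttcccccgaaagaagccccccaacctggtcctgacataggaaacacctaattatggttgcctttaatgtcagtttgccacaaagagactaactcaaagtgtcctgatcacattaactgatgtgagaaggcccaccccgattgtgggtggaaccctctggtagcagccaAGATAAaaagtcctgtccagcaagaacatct
Hsd17b3: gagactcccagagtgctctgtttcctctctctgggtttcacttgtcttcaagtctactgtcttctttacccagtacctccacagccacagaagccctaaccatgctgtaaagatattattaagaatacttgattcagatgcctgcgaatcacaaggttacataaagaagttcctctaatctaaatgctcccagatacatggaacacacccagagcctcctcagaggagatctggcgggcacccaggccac
Insl3: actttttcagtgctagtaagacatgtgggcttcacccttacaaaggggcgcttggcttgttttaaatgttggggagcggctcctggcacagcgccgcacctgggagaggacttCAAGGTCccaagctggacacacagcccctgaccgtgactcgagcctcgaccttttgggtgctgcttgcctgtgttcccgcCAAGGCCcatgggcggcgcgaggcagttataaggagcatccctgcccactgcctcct
Windows of 7 of the 10 genes were searched, and Star, Cyp17a1 and Nr5a1 were not analysed here. Insl3 was the only 1 of the 7 with the SF-1 core, from 137 to 131 and from 57 to 51 bases before the start, and 15.0% of all 32851 windows held this motif. Hsd3b1 and Hsd3b6 were the 2 of the 7 with the GATA motif, which 9.99% of all windows held. It stood from 134 to 129 bases before the start of Hsd3b1, on the opposite strand, and from 31 to 26 bases before that of Hsd3b6. A match describes the letters and shows no binding.

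All 10 genes were detected in all 27 testis libraries, which had 22509570 to 42137954 reads on genes. In RPKM, which allows for gene length, Hsd3b1 was the most abundant in the 3 P10.5 controls of the Morc1 line, with a mean of 115 ± 22.5 (SD, n = 3). Nr5a1 followed at 84.6 ± 2.31, and then Cyp11a1 (54.3 ± 4.50), Hsd17b3 (51.9 ± 11.1) and Cyp17a1 (45.5 ± 15.1). Those last 3 lay within their spread of each other. Star was lower, at 15.4 ± 5.14, followed by Akr1c14 at 7.23 ± 0.518. The receptor Lhcgr (2.99 ± 0.565) and Insl3, the gene of the peptide hormone that guides testis descent (2.06 ± 0.844), also lay within their spread of each other, and Hsd3b6 came last at 0.322 ± 0.163. The plot of levels by line, day and genotype shows how far apart the genes are in their spread. Nr5a1 was tight within each group, whereas Cyp17a1 and Star were scattered in several of them.

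**Figure D1:**
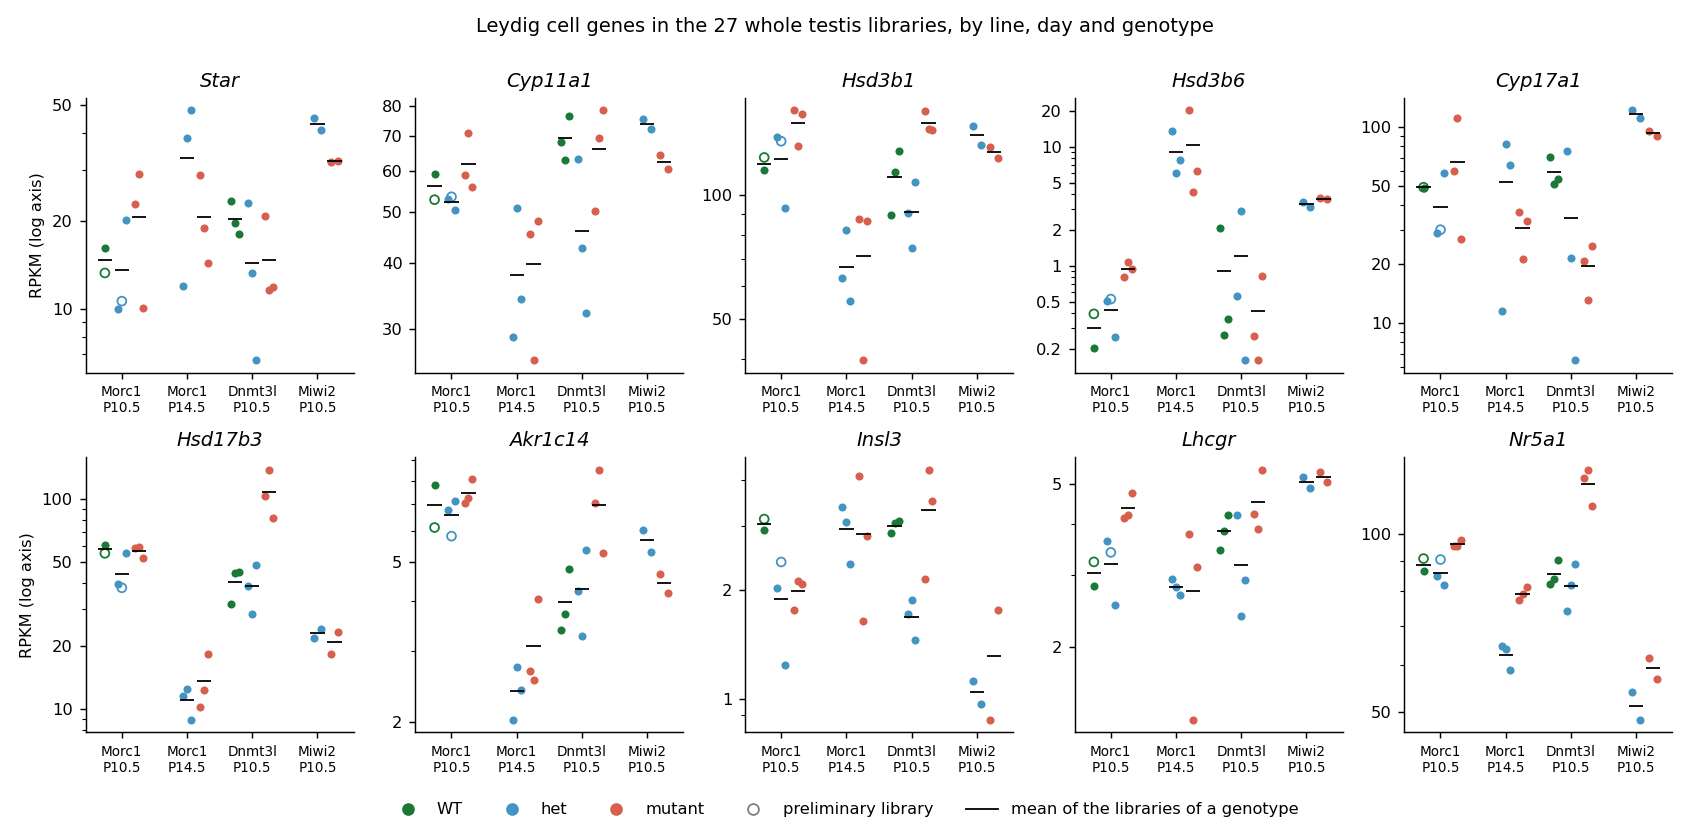
RPKM of each gene (log axis) in the 27 whole testis libraries, by line, day and genotype. Each point is 1 library, open points are the preliminary libraries and black lines are genotype means. Cyp17a1 ran from 6.49 to 122 RPKM and Nr5a1 from 48.6 to 128 RPKM over the 27 libraries.

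The sorted germ cells were examined to see whether these genes belong to the somatic part of the testis. At P10.5, the 10 genes summed to 3.62 to 6.30 RPKM in the 7 sorted libraries, against 367 to 512 RPKM in the 8 whole testis libraries of the same line. Cyp11a1 and Hsd3b1 were nearly absent, with 5 reads each among 60163048 reads on genes, and their sorted means were 0.0461% and 0.0191% of the testis means. Insl3 had 0 reads in all 7 libraries, which allows up to 3.19% of its testis level (3 reads, counting error only), and Hsd3b6 had 1 read, fewer than the 3 reads that allow 4.07%. Lhcgr (4 reads, 0.365%), Akr1c14 (5 reads, 0.222%) and Cyp17a1 (41 reads, 0.378%) were also low. Star, the gene of the cholesterol carrier, was the exception at 1.69 ± 0.379 RPKM (SD, n = 7), 10.2% of its testis mean and present in all 7 libraries. Nr5a1 and Hsd17b3 stood at 1.71% and 1.80%. The 11 Sertoli cell genes summed to 76.7 to 203 RPKM in these libraries, against 4461 to 5512 RPKM in testis. The part of Sertoli cell RNA in the Nr5a1 and Hsd17b3 values was not tested.

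At the earlier stages, some of the genes stood higher in the sorted cells. Cyp11a1 was at 1.94 to 2.42 RPKM in the 4 E16.5 libraries and at 0 to 4.36 RPKM at E18.5. The highest Cyp17a1 value in any sorted library, 7.97 RPKM, was also at E18.5. Hsd17b3 was instead highest at P2.5, at 1.15 to 5.01 RPKM (mean 2.77 ± 1.95, n = 5), and had no reads in the 4 E18.5 libraries. The plot of testis against sorted germ cells shows these distances for each gene and stage. The 2 kinds of library came from different kits, so that the percentages compare libraries and not cells.

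**Figure D2:**
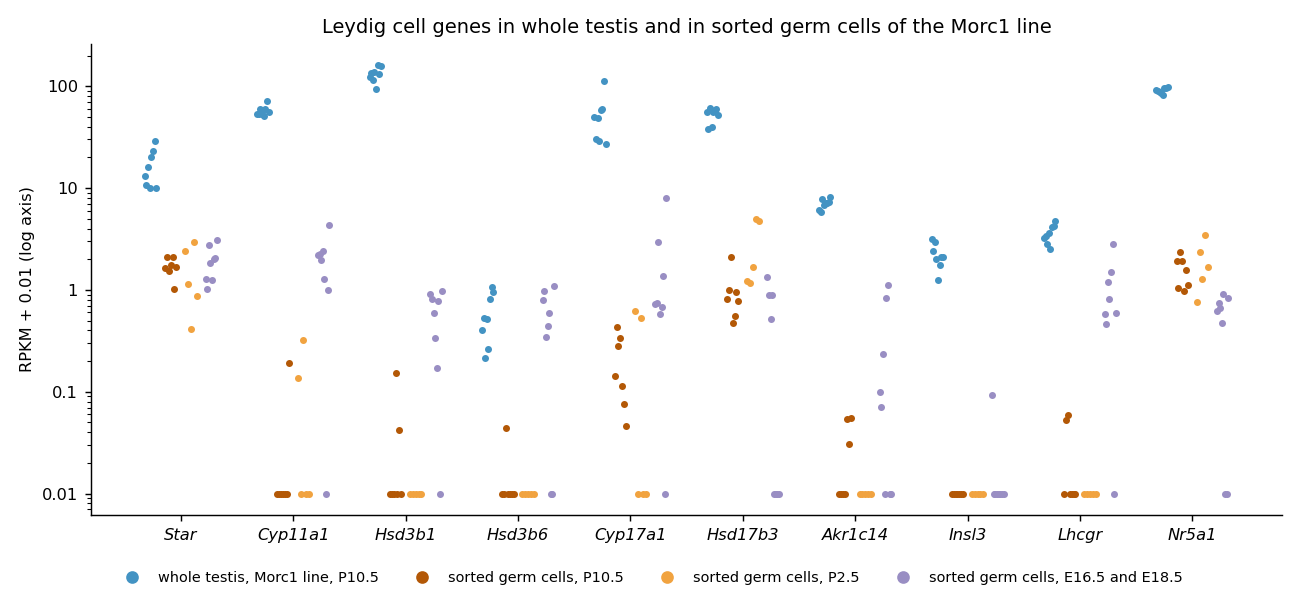
RPKM + 0.01 (log axis) of each gene in the P10.5 whole testis libraries of the Morc1 line (blue, n = 8) and in sorted germ cells of P10.5 (brown, n = 7), P2.5 (orange, n = 5) and E16.5 and E18.5 (purple, n = 8), each point 1 library. At P10.5, Star, Nr5a1 and Hsd17b3 stand at 10.2%, 1.71% and 1.80% of the testis mean, and Insl3 has 0 reads in all 7.

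The targeted genes were read first as a check of the labels. Morc1 was at 2.06 to 2.41 RPKM in the P10.5 Morc1 tg/tg testes and at 6.29 to 10.2 RPKM in the 3 controls, and at P14.5 at 2.63 to 3.49 against 7.73 to 8.77 RPKM. Dnmt3l had 3 to 4 reads in each Dnmt3l-/- library, at 0.0370 to 0.0464 RPKM against 0.374 to 1.02 RPKM in the controls. Piwil4, the gene of MIWI2, went against its label. It was at 10.7 and 11.5 RPKM in the libraries labelled Miwi2 KO and at 6.65 and 7.01 RPKM in the heterozygotes, a log2 fold change of 0.69 ± 0.07 (SE), with an adjusted p of 0.000746 by edgeR's quasi-likelihood test. Whether the reads fall outside the deleted part was not tested, and the Miwi2 groups are given below as labelled.

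At P10.5, Morc1 tg/tg testes held more Hsd3b6, Lhcgr and Nr5a1 RNA than their controls, and none of the 10 genes was called as lower. The side chain cleavage and androgen genes in between, Cyp11a1, Cyp17a1, Hsd17b3 and Star, did not pass the test. Of all 15165 genes tested, 15.3% passed, 6.08% as higher and 9.26% as lower, so that 3 of 10 higher is to be read against 6.08%. The median log2 fold change of the 10 genes was 0.29 and that of all genes 0.01. In whole testis RNA, more cells of a type and more RNA per cell cannot be told apart. P-values measure the spread between these libraries, each from a different mouse.

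Hsd3b6, the adult-type isomerase, was barely present at this age. It was at 0.800, 1.07 and 0.935 RPKM (41, 60 and 73 reads) in the 3 Morc1 tg/tg libraries and at 0.205, 0.509 and 0.253 RPKM (12, 30 and 13 reads) in the controls. Every mutant library lay above every control. The log2 fold change was 1.53 ± 0.29 (SE, n = 3 and 3), or 2.89-fold, with an adjusted p of 0.00559 by edgeR's quasi-likelihood test with Benjamini-Hochberg adjustment. Lhcgr, the luteinizing hormone receptor, was at 4.13, 4.19 and 4.77 RPKM in the mutants and at 2.82, 3.62 and 2.53 RPKM in the controls, again without overlap (log2 fold change 0.56 ± 0.13, 1.47-fold, adjusted p 0.017). Nr5a1 was at 95.4, 95.6 and 97.6 against 86.7, 84.9 and 82.1 RPKM. This small but tight difference, 1.15-fold (log2 0.20 ± 0.05), had an adjusted p of 0.0176.

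Hsd3b1, the main isomerase, was at 160, 131 and 157 RPKM in the mutants and at 115, 138 and 92.9 RPKM in the controls, and the groups overlapped (log2 fold change 0.39 ± 0.12, adjusted p 0.0588). It was called without Morc1 tg/+ replicate 2 (0.54, adjusted p 0.00523, with 15.4% of all genes) and without a filter on low counts (adjusted p 0.0163). Cyp17a1, the gene of the 17-hydroxylase and lyase, was at 59.8, 112 and 26.9 RPKM against 49.2, 28.8 and 58.3 RPKM. Its mutants held both the highest and the lowest value (0.55 ± 0.39, adjusted p 0.37). Star was at 22.9, 29.0 and 10.1 against 16.1, 9.97 and 20.2 RPKM, with overlapping groups (0.43 ± 0.32, adjusted p 0.393). The values were closest between groups for Akr1c14, which reduces androgens (0.07 ± 0.08), Insl3 (-0.05 ± 0.27) and Hsd17b3 (0.14 ± 0.12). Cyp11a1 stood at 0.20 ± 0.09 (adjusted p 0.14).

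Markers of other cells moved beside these genes. The summed level of 8 germ cell genes was 333 to 377 RPKM in the mutants and 511 to 520 RPKM in the controls, and that of 11 Sertoli cell genes 5013 to 5512 against 4560 to 4826 RPKM. Of cells between the tubules, 6 macrophage genes summed to 19.6 to 30.3 against 17.3 to 20.2 RPKM (3 rose, median log2 fold change 0.49), 6 endothelial genes to 39.5 to 43.9 against 33.8 to 38.9 RPKM and 5 stroma genes to 765 to 815 against 637 to 755 RPKM. Their part in the result was not tested. When libraries were instead scaled on the Sertoli cell genes, the median of all genes shifted to -0.23 (125 higher and 7048 lower calls, against 922 and 1404). Lhcgr and Hsd3b6 kept their calls and Nr5a1 turned to -0.03 (adjusted p 0.666). The Lhcgr call ended without wild-type replicate 1 (adjusted p 0.054), without replicate 3 of the heterozygotes (0.0638) or of the mutants (0.102), and that of Nr5a1 without either of the latter (0.101 and 0.0941), which left Hsd3b6 as the only call in those cases.

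At P14.5, 4 days later, Nr5a1 was the only 1 of the 10 genes that differed between Morc1 tg/tg and Morc1 tg/+ testes, where 34.8% of 15283 genes passed (14.8% higher and 20.1% lower). Nr5a1 was at 77.4, 79.0 and 81.3 RPKM in the mutants and at 64.7, 64.0 and 59.0 RPKM in the heterozygotes. The groups were far apart relative to their spread (log2 fold change 0.35 ± 0.05, 1.28-fold, adjusted p 0.0015 by edgeR's quasi-likelihood test). The median of the 10 genes was 0.09. Star and Cyp17a1 had the lowest estimates, with wide errors. Star was at 28.8, 18.9 and 14.3 RPKM in the mutants and at 12.0, 38.5 and 48.0 RPKM in the heterozygotes (-0.66 ± 0.44, adjusted p 0.271). Cyp17a1 was at 36.9, 21.2 and 33.2 against 11.6, 82.1 and 64.0 RPKM (-0.78 ± 0.55, adjusted p 0.299). For both genes, Morc1 tg/+ replicate 1 was the lowest of all 6 libraries. Without it, Star was at -1.06 (adjusted p 0.014) and Cyp17a1 at -1.26 (adjusted p 0.00296), and 3 of the 10 genes were called, where 23.8% of all genes passed (8.72% higher and 15.1% lower).

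Hsd3b6, which had differed at P10.5, was at 20.3, 4.19 and 6.29 RPKM in the P14.5 mutants and at 13.5, 6.03 and 7.68 RPKM in the heterozygotes. The heterozygote range lay within that of the mutants (0.18 ± 0.52, adjusted p 0.818). Of the other 6 genes, Akr1c14 was at 0.38 ± 0.20 (adjusted p 0.173), Hsd17b3 at 0.32, Hsd3b1 at 0.10, Cyp11a1 at 0.08, Lhcgr at -0.03 and Insl3 at -0.04. Germ cell genes summed to 529 to 626 RPKM in the mutants against 1044 to 1275 RPKM, and Sertoli cell genes to 5665 to 6934 against 4457 to 4833 RPKM; their part in the Nr5a1 value was not tested. Scaled on the Sertoli cell genes, Nr5a1 was at 0.01 (adjusted p 0.956) and none of the 10 was called, with the median of all genes at -0.33 (153 higher and 7981 lower calls, against 2257 and 3066).

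The question whether the Morc1 difference changed between the 2 days was put to an interaction test. None of the 10 genes passed it, whether after adjustment or at an unadjusted p under 0.05, where 8.22% of all genes passed (1.49% higher and 6.73% lower). DESeq2 also called 0 of the 10, with 1 at an unadjusted p under 0.05. The largest estimates were those of Hsd3b6 (-1.36 ± 0.89, adjusted p 0.392), Cyp17a1 (-1.35 ± 0.78, adjusted p 0.324) and Star (-1.11 ± 0.63, adjusted p 0.315). Nr5a1, called at both days, was at 0.14 ± 0.07 (adjusted p 0.241). Without P14.5 Morc1 tg/tg replicate 1, the library with the highest Hsd3b6 level of all 27, Hsd3b6 passed at -2.31 (adjusted p 0.0155).

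In the Dnmt3l-/- testes, Hsd17b3, Akr1c14, Hsd3b1 and Nr5a1 were higher than in the controls, and none of the 10 genes was called as lower. Cyp17a1, Hsd3b6 and Star had negative estimates that did not pass, and Cyp17a1 passed as lower under some alternatives given below. In this comparison 53.9% of 15665 genes passed, 24.9% as higher and 29% as lower, so that 4 of 10 higher is to be read against 24.9%. The median log2 fold change of the 10 genes was 0.48. The plot of mutant differences sets the 4 comparisons side by side, which use different mice in each line and day.

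Hsd17b3, the enzyme of the last step to testosterone, was at 103, 138 and 81.4 RPKM in the Dnmt3l-/- testes. The 3 wild-type libraries were at 31.8, 44.6 and 45.2 RPKM and the 3 heterozygotes at 38.5, 28.4 and 48.5 RPKM. The lowest mutant was thus above the highest control, at means of 108 ± 28.6 (SD, n = 3) and 39.5 ± 8.07 (n = 6). The log2 fold change was 1.49 ± 0.18 (SE), or 2.81-fold, with an adjusted p of 2.69e-05 by edgeR's quasi-likelihood test. Akr1c14, which makes a reduced androgen in immature Leydig cells, was at 7.03, 8.52 and 5.27 RPKM, and its controls ran from 3.28 through a median of 3.99 to 5.38 RPKM. The groups overlapped by 1 mutant library (0.79 ± 0.17, 1.73-fold, adjusted p 0.00223).

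Hsd3b1 was at 159, 144 and 143 RPKM in the Dnmt3l-/- testes and from 74.4 through 98.7 to 128 RPKM in the controls (0.62 ± 0.13, 1.53-fold, adjusted p 0.0022 by edgeR's quasi-likelihood test). Nr5a1 was at 124, 128 and 111 RPKM against 74.2 through 83.1 to 90.5 RPKM (log2 fold change 0.58 ± 0.07, adjusted p 4.12e-05). For both genes every mutant lay above every control. Cyp17a1 went the other way without passing, at 20.9, 13.2 and 24.6 RPKM against 70.5, 51.3 and 54.4 RPKM in wild types and 75.6, 21.5 and 6.49 RPKM in heterozygotes (-1.20 ± 0.56, adjusted p 0.0888). The heterozygotes spanned more than the whole mutant range. Against the wild types alone Cyp17a1 passed at -1.52 (adjusted p 0.00022), and it also passed without heterozygous replicate 3, the lowest control, at -1.41 (adjusted p 0.00331).

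The remaining 5 genes did not pass in the Dnmt3l line. Lhcgr was at 4.24, 3.89 and 5.43 RPKM against 2.37 to 4.21 RPKM (0.42 ± 0.17, adjusted p 0.0532), and it was called by DESeq2 (adjusted p 0.0282), with RLE scaling (0.0439), without a low-count filter (0.0455), and without wild-type replicate 3, heterozygous replicate 1 or Dnmt3l-/- replicate 2. Insl3 was at 0.55 ± 0.27 (adjusted p 0.103), Cyp11a1 at 0.24 ± 0.22 and Star at -0.18 ± 0.32. Hsd3b6 varied more among controls than between genotypes, at 0.256, 0.161 and 0.828 RPKM against 0.163 to 2.88 RPKM (-1.27 ± 0.86, adjusted p 0.233). Insl3 passed when only heterozygotes were the controls (1.04, adjusted p 0.0138) or without Dnmt3l-/- replicate 1 (0.77, adjusted p 0.042).

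Germ cell genes summed to 247 to 311 RPKM in the Dnmt3l-/- testes and to 694 to 834 RPKM in the controls, Sertoli cell genes to 5035 to 5804 against 3514 to 4684 RPKM, stroma genes to 698 to 896 against 478 to 678 RPKM, endothelial genes to 45.4 to 52.5 against 31.0 to 42.5 RPKM and macrophage genes to 17.7 to 21.7 against 13.8 to 19.2 RPKM. Their part in these results was not tested. Scaled on the Sertoli cell genes, where the median of all genes was at -0.34 (523 higher and 7991 lower calls, against 3900 and 4539), Hsd17b3 stayed called as higher and Cyp17a1 was called as lower at -1.56 (adjusted p 0.00915), whereas Hsd3b1 (0.27, adjusted p 0.163), Nr5a1 (0.24, 0.0807) and Akr1c14 (0.45, 0.0593) were not. The sum of 5 epididymal marker genes was 0.0510 to 34.5 RPKM in the controls and 0.0831 to 0.222 RPKM in the mutants. Epididymal RNA was thus uneven among the controls, and the lowest control lay below every mutant. The 4 calls were kept without each library in turn. Leaving out single libraries does not remove RNA that several controls may share, so that the part of epididymal RNA was not tested.

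**Figure D3:**
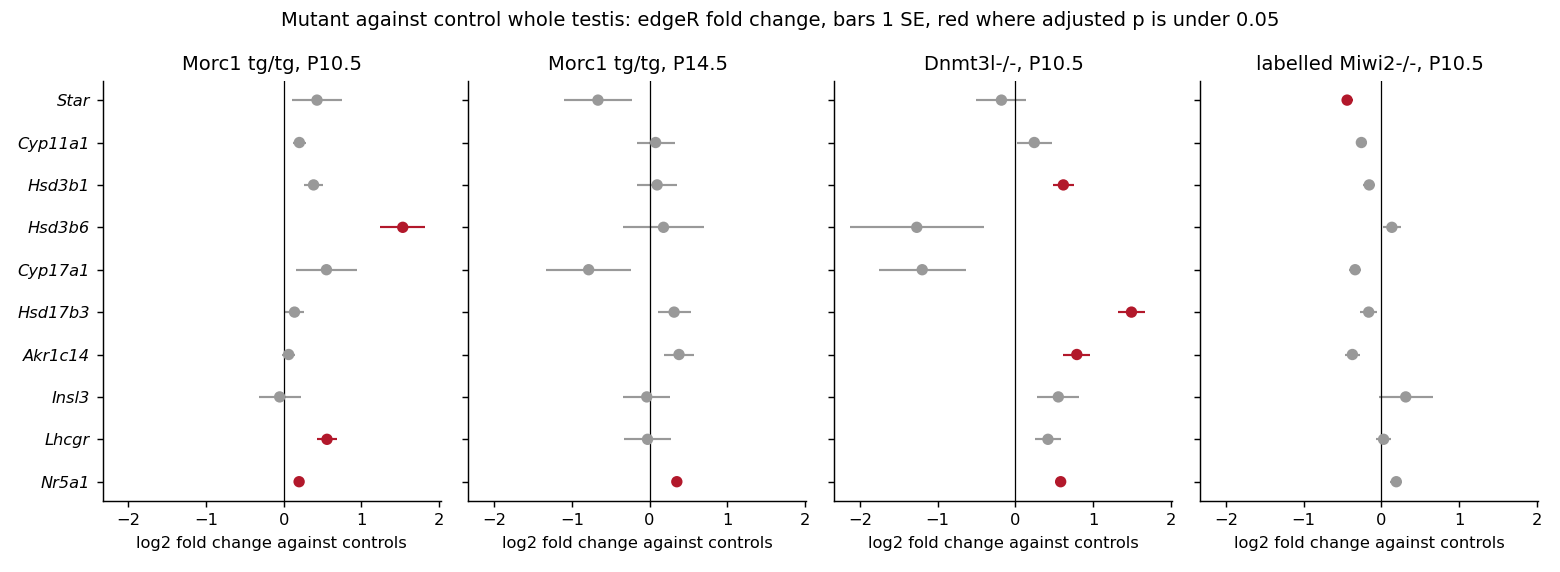
Log2 fold change (points) ± 1 SE (bars) of each gene in the 4 mutant comparisons, with red for an adjusted p under 0.05 (edgeR). The highest value is Hsd3b6 in the Morc1 line at P10.5 (1.53), followed by Hsd17b3 in the Dnmt3l line (1.49).

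The Morc1 and Dnmt3l differences at P10.5 were compared directly by an interaction test over 15 libraries. The difference was smaller in the Morc1 line for 3 of the 10 genes, where 17.6% of all genes passed (9.45% higher and 8.14% lower). They were Hsd17b3 (-1.40 ± 0.27, adjusted p 0.00229), Akr1c14 (-0.77 ± 0.24, adjusted p 0.0337) and Nr5a1 (-0.43 ± 0.10, adjusted p 0.00705), tested with edgeR. Hsd3b1, called in the Dnmt3l line and not in the Morc1 line, was at -0.28 ± 0.22 (adjusted p 0.403), so that its difference between lines was not shown. Nor was that of Hsd3b6 (2.75 ± 1.19, adjusted p 0.118) or Cyp17a1 (1.70 ± 0.82, adjusted p 0.16). Each of these passed under 1 of 20 alternatives. Hsd3b6 did so without Dnmt3l-/- replicate 3 (3.74, adjusted p 0.0457) and Cyp17a1 without Dnmt3l heterozygous replicate 3 (1.93, adjusted p 0.031). The Akr1c14 call ended without any 1 of 7 libraries (adjusted p 0.0545 to 0.113). Scaled on the Sertoli cell genes, Hsd17b3 alone passed, with 1578 higher and 123 lower calls over all genes against 1502 and 1295.

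In the Miwi2 line, Star was lower in the 2 libraries labelled Miwi2 KO, and it was the only 1 of the 10 genes called where 1.23% of 15997 genes passed (0.725% higher and 0.506% lower). Star was at 31.9 and 32.2 RPKM in these libraries and at 45.0 and 41.0 RPKM in the heterozygotes, a log2 fold change of -0.44 ± 0.07 (1.36-fold lower, adjusted p 0.0128 by edgeR's quasi-likelihood test). Cyp17a1 was at 95.9 and 90.6 against 122 and 111 RPKM, Cyp11a1 at 64.5 and 60.5 against 75.4 and 72.2 RPKM, and Akr1c14 at 4.68 and 4.20 against 6.04 and 5.32 RPKM. Their adjusted p-values were 0.0624, 0.0888 and 0.0879. The log2 fold changes of these 3 genes were -0.34, -0.26 and -0.37, and without heterozygous replicate 2 they were -0.41, -0.29 and -0.46. Without Miwi2 KO replicate 1, that of Akr1c14 was -0.46. These 2 fits leave 1 library in a group, so that their p-values are not to be relied on. DESeq2 called Star, Cyp11a1 and Cyp17a1, and 2.54% of all genes. Insl3 (0.31), Nr5a1 (0.19), Hsd3b6 (0.13), Lhcgr (0.03), Hsd3b1 (-0.16) and Hsd17b3 (-0.16) had adjusted p-values of 0.206 or more, and the median of the 10 genes was -0.16.

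The germ cell sums of the Miwi2 groups lay close, at 726 to 727 against 710 to 724 RPKM, as did the Sertoli cell sums (3204 to 3301 against 3072 to 3392 RPKM). Fat cell genes differed, with 5 genes at 25.2 to 28.4 RPKM in the heterozygotes against 5.93 to 6.12 RPKM in the libraries labelled Miwi2 KO, and Adipoq at 1.97 to 2.07 against 0.0899 to 0.158 RPKM. Their part in the Star value was not tested. Scaled on the Sertoli cell genes, Star was at -0.47 with an adjusted p of 0.0507 and none of the 10 was called (37 higher and 14 lower calls over all genes, against 116 and 81).

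The control genotypes were also compared, since wild-type and heterozygous mice had been joined. In the Dnmt3l line, none of the 10 genes was called, as was 1 of 15370 genes (0.00651%; 287 at an unadjusted p under 0.05, and 2 by DESeq2). Insl3 was at 1.71, 1.87 and 1.45 RPKM in the heterozygotes and at 2.86, 3.06 and 3.10 RPKM in the wild types. These groups did not overlap, but with an adjusted p of 1 (log2 -0.84 ± 0.19, unadjusted p 0.00168, edgeR) the difference did not hold over all genes. Cyp11a1 was the other gene with an unadjusted p under 0.05 (-0.59 ± 0.20, unadjusted p 0.0157). In the Morc1 line, with the preliminary libraries and their batch as a term, none of the 10 was called either (2 of 15290 genes, 0.0131%; 907 unadjusted, and 5 by DESeq2). Hsd17b3 (-0.42 ± 0.10, adjusted p 0.59), Insl3 and Cyp17a1 were the 3 with an unadjusted p under 0.05. Without Morc1 tg/+ replicate 3, Hsd17b3, Cyp17a1, Star and Hsd3b1 were called, where 2.91% of all genes passed. That fit has 4 libraries and 1 residual degree of freedom, so that its p-values are not to be relied on.

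Between P10.5 and P14.5, the Leydig cell genes of the Morc1 line changed in opposite directions. Hsd3b6 rose while its neighbour Hsd3b1 fell, and Hsd17b3, Akr1c14 and Nr5a1 fell with it, in Morc1 tg/+ and in Morc1 tg/tg testes. The tests of age share libraries with the tests of genotype above. In Morc1 tg/+ testes, 2 of the 10 genes rose and 4 fell, where 51.4% of 15538 genes passed (25.4% higher and 26% lower). In Morc1 tg/tg testes 1 rose and 6 fell, where 41% of 15163 genes passed (19.8% higher and 21.1% lower). The median of the 10 genes was -0.30 and -0.66.

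Hsd3b6 was at 0.509 and 0.253 RPKM in the 2 Morc1 tg/+ libraries at P10.5 and at 13.5, 6.03 and 7.68 RPKM in the 3 at P14.5. That was 22.9-fold higher (log2 fold change 4.52 ± 0.44, adjusted p 6.66e-05 by edgeR's quasi-likelihood test). In Morc1 tg/tg testes it went from 0.800, 1.07 and 0.935 RPKM to 20.3, 4.19 and 6.29 RPKM, which was 10.9-fold higher (3.44 ± 0.54, adjusted p 0.000822). Even at P14.5 its highest level stayed under the lowest of Hsd3b1. Hsd3b1 went from 138 and 92.9 to 62.7, 82.3 and 55.2 RPKM in Morc1 tg/+ testes (1.75-fold lower, log2 -0.81 ± 0.18, adjusted p 0.00552) and from 160, 131 and 157 to 87.1, 39.8 and 86.4 RPKM in Morc1 tg/tg testes (2.11-fold lower, -1.08 ± 0.23, adjusted p 0.00464). Without P10.5 replicate 2, the Morc1 tg/+ value of Hsd3b1 was -0.47, in a fit that left 1 library in the P10.5 group.

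Hsd17b3 fell the most. It was at 39.4 and 55.6 RPKM in P10.5 Morc1 tg/+ testes and at 11.6, 12.5 and 8.93 RPKM at P14.5, 4.34-fold lower (log2 -2.12 ± 0.16, adjusted p 1.91e-05 by edgeR's quasi-likelihood test). In Morc1 tg/tg testes it was 4.17-fold lower, from 58.5, 59.2 and 52.2 to 10.2, 12.3 and 18.4 RPKM (-2.06 ± 0.17, adjusted p 2.28e-05). All 6 libraries of P14.5 lay below all 8 libraries of P10.5 of this line. Akr1c14 fell 2.94-fold in Morc1 tg/+ testes, from 6.77 and 7.12 to 2.02, 2.74 and 2.41 RPKM (adjusted p 3.51e-05), and 2.43-fold in Morc1 tg/tg testes (adjusted p 0.000221). Nr5a1 fell by less, 1.35-fold (adjusted p 0.000314) and 1.22-fold (adjusted p 0.00321).

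The upper steps of the pathway were less clear with age. Cyp11a1 was 1.38-fold lower in Morc1 tg/+ testes (-0.47 ± 0.19, adjusted p 0.069, called under 5 of 11 alternatives, with -0.72 without P14.5 replicate 2, adjusted p 7.78e-05) and 1.56-fold lower in Morc1 tg/tg testes (-0.64 ± 0.18, adjusted p 0.0192, or 0.0682 without P10.5 replicate 2). Star, with P14.5 values of 12.0, 38.5 and 48.0 RPKM in Morc1 tg/+ testes, was at 1.12 ± 0.50 (adjusted p 0.09) there and at 0.00 ± 0.33 in Morc1 tg/tg testes. Without P14.5 Morc1 tg/+ replicate 1, it passed at 1.53 (adjusted p 0.000995). Cyp17a1 was at 0.26 ± 0.61 in Morc1 tg/+ testes (adjusted p 0.744; 0.75 without that library, adjusted p 0.0326) and was 2.17-fold lower in Morc1 tg/tg testes (-1.12 ± 0.40, adjusted p 0.0467). This last call ended with DESeq2 (adjusted p 0.117) and without any 1 of 4 libraries. Insl3 rose in Morc1 tg/+ testes (0.82 ± 0.28, adjusted p 0.0379). This call ended without P14.5 replicate 1 (adjusted p 0.0957) or P14.5 replicate 2 (0.0511), when wild-type replicate 1 was added (0.164), and with DESeq2 (0.084). Without P10.5 replicate 3, Insl3 was at 0.53, in a fit that left 1 library in the P10.5 group. In Morc1 tg/tg testes it was at 0.52 ± 0.29 (adjusted p 0.185, called under 1 of 11 alternatives). Lhcgr was at -0.16 ± 0.17 in Morc1 tg/+ testes and at -0.68 ± 0.27 in Morc1 tg/tg testes (adjusted p 0.0706, called under 4 of 11 alternatives).

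The makeup of the testis changed over the same days. Germ cell genes summed to 511 to 520 RPKM in the P10.5 controls and to 1044 to 1275 RPKM in the P14.5 heterozygotes, and 8 genes of meiosis to 119 to 124 and to 462 to 621 RPKM. Stroma genes went from 637 to 755 RPKM to 409 to 426 RPKM. In Morc1 tg/+ testes, 5 of 5 stroma, 2 of 6 peritubular and 2 of 6 endothelial genes fell, where 26% of all genes fell. In the same testes 8 of 8 genes of meiosis, 6 of 8 germ cell genes and 2 of 6 macrophage genes rose, where 25.4% of all genes rose. In Morc1 tg/tg testes, 5 of 5 stroma, 4 of 6 peritubular and 4 of 6 endothelial genes fell and none of them rose. Of all genes, 21.1% fell and 19.8% rose there. All 8 genes of meiosis and 7 of 8 germ cell genes rose, and no macrophage or blood gene was called. Their part in the changes with age was not tested. Scaled on the Sertoli cell genes, 7 of the 10 genes were called in each genotype, where 50.6% of all genes passed in Morc1 tg/+ and 42.7% in Morc1 tg/tg testes. The 11 Sertoli cell genes themselves changed with age, so that this scale was not a fixed reference. In Morc1 tg/+ testes 4 of them rose and 6 fell, and in Morc1 tg/tg testes 4 rose and 4 fell. The plot of age differences shows that both genotypes moved in the same direction for Hsd3b6, Hsd17b3 and Akr1c14, and none of these genes passed the interaction test given above.

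**Figure D4:**
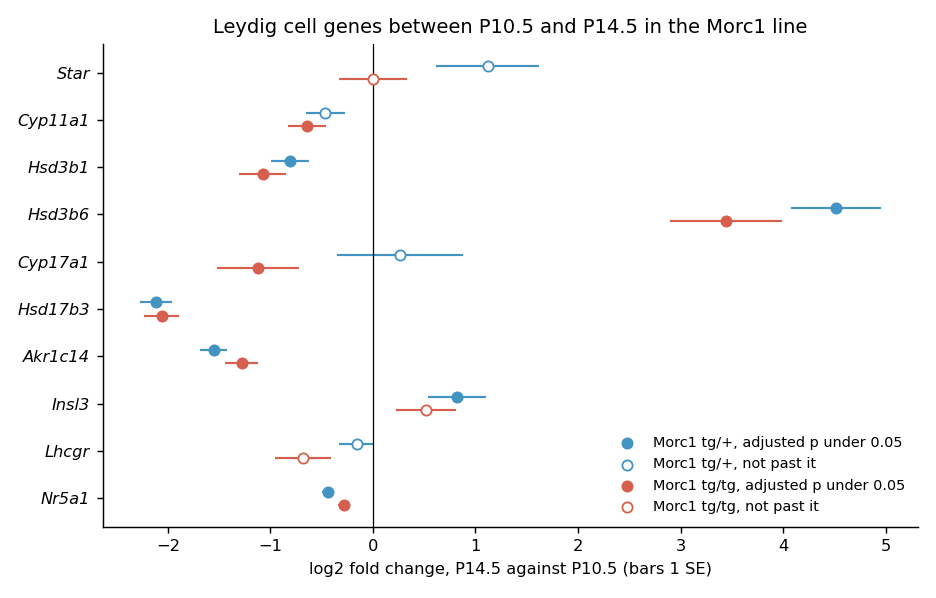
Log2 fold change (points) ± 1 SE (bars) of each gene from P10.5 to P14.5 in Morc1 tg/+ and Morc1 tg/tg testes. Hsd3b6 is the highest in both genotypes (4.52 and 3.44) and Hsd17b3 the lowest (-2.12 and -2.06).

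Among mice of the same group, Star and Cyp17a1 were the most variable members together with Hsd3b6. The within-group SD of log2(RPKM + 1) over 24 libraries in 9 groups was 0.94 for Cyp17a1, 0.63 for Star, 0.62 for Hsd3b6 and 0.08 for Nr5a1. Cyp17a1 differed 11.6-fold between the highest and the lowest of the 3 Dnmt3l heterozygotes, and Star 3.46-fold. In the P14.5 Morc1 tg/+ group the spans were 7.09-fold and 4.00-fold, and in the P10.5 Morc1 tg/tg group 4.15-fold and 2.88-fold. In the same Dnmt3l heterozygotes Hsd3b6 ran from 0.163 to 2.88 RPKM, and the added 1 in the log scale narrows the spread of genes at such low levels.

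As a description across libraries, the deviations of Star and Cyp17a1 from their group means had a Pearson r of 0.89 (n = 24), with 0.91 in the Morc1 line, 0.88 in the Dnmt3l line and 0.83 without the 2 farthest libraries. This was the highest of the 45 pairs of the 10 genes, chosen after its value was seen, and the points share library and depth. The median r of all 45 was 0.03, with 8 pairs over 0.5 and 19 under 0. Hsd3b1 with Lhcgr stood at 0.76 and Hsd17b3 with Akr1c14 at 0.74, or at 0.52 and 0.65 without the 2 farthest libraries. Cyp17a1 with Hsd3b1 stood at -0.05. The lowest pairs were Hsd3b6 with Hsd17b3 (-0.66), Hsd3b6 with Akr1c14 (-0.59), Cyp17a1 with Nr5a1 (-0.59) and Star with Nr5a1 (-0.50). The scatter of Star against Cyp17a1 shows the pair in all 27 libraries.

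Over all 27 libraries, and without taking deviations from group means, Fdx1 was the gene most like Star (r 0.88) and also the gene most like Cyp17a1 (r 0.75), among 12557 genes. Fdx1 makes ferredoxin, which hands electrons to the mitochondrial P450 enzymes. Star was next most like Mrap (r 0.79). The closest genes were Tmem45a (r 0.92) to Hsd3b1, Gm9112 (0.96) to Hsd3b6, Naprt1 (0.98) to Hsd17b3, Zfp395 (0.98) to Nr5a1, Itm2a (0.95) to Akr1c14, Tcf23 (0.84) to Lhcgr, Elovl6 (0.84) to Cyp11a1 and Fadd (0.74) to Insl3. The 10 genes most like the mean of all 10 members were led by Oxtr (0.73), Tenc1 (0.72) and Fam129a (0.71). These values include differences between lines and days.

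Genes around the pathway are given by lists, whose counts are to be read against the share of all genes called, which was 15.3% in the Morc1 line at P10.5, 34.8% at P14.5, 53.9% in the Dnmt3l line and 1.23% in the Miwi2 line, and 51.4% and 41% with age. No test compared the lists between lines. Of 15 regulators and signals of Leydig cells, 12 rose and 1 fell in Dnmt3l-/- testes (median 0.60), among them Dhh (0.84, adjusted p 1.72e-06, edgeR), the Sertoli cell signal to Leydig precursors, Gata4 (0.78), Pdgfra (0.75) and Prlr (0.62), whereas Nr5a2 fell by 0.85. In the Morc1 line 4 rose and none fell at P10.5 (median 0.13; Prlr 0.56, Pdgfra 0.38, Igf1 0.32 and Dhh 0.19), and 8 rose and 1 fell at P14.5 (median 0.40), among them Nr5a2 (0.66) and Gata4 (0.48), with Pde8a the 1 that fell (-0.49). Nr4a1 (0.58) was the only 1 called in the Miwi2 line (median 0.13). With age, 2 rose and 10 fell in Morc1 tg/+ testes (median -0.77) and 1 rose and 11 fell in Morc1 tg/tg testes (median -0.65), with Gata4 at -1.27 and -0.96.

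Enzymes next to the pathway were led by Hsd17b1, which activates estrogens. It was higher in all 3 comparisons of Morc1 tg/tg or Dnmt3l-/- testes, at 0.32 (adjusted p 0.00992, edgeR) and 1.20 (adjusted p 0.00558) in the Morc1 line and 1.93 (adjusted p 1.18e-06) in the Dnmt3l line. Of the 10 enzymes of this list, 5 or 6 were tested. At P10.5 in the Morc1 line 1 rose (median 0.24), at P14.5 2 rose (median 0.33), in the Dnmt3l line 3 rose and 1 fell (median 0.65), and in the Miwi2 line none was called (median -0.02). Srd5a2 (0.95), a 5-alpha-reductase that converts testosterone, and Ptgds (1.10) were the other 2 that rose in Dnmt3l-/- testes, and Hsd17b7 fell by 0.44. Ptgds, which is on this list, encodes a prostaglandin D synthase and not a steroid enzyme. With age 1 rose and 4 fell in Morc1 tg/+ testes (median -0.73), with Hsd17b1 at -2.80, and 1 rose and 3 fell in Morc1 tg/tg testes (median -0.94).

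The 4 genes of electron transfer to the P450 enzymes split. At P10.5 in the Morc1 line Fdxr rose (0.18; median of the list 0.11). At P14.5 Fdxr rose (0.40), while Por, which serves CYP17A1, fell by 0.38 and Fdx1 fell by 0.91 (adjusted p 0.0335, edgeR; median -0.11). In Dnmt3l-/- testes Fdxr (0.60) and Cyb5 (0.40) rose and Por fell by 0.38 (median 0.18). None was called in the Miwi2 line (median -0.07), and with age 2 rose and 1 fell in each Morc1 genotype (medians 0.42 and 0.01).

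Of 17 genes of cholesterol supply, 0 rose and 3 fell in Morc1 tg/tg testes at P10.5 (median -0.07; Lss -0.25, Idi1 -0.22 and Fdps -0.19), and 7 rose and 1 fell at P14.5 (median 0.18), among them Cyp51 (0.28), with Lipe the 1 that fell (-0.26). In Dnmt3l-/- testes, 9 of the 17 were called (52.9%, against 53.9% of all genes), of which 2 rose, among them Tspo (0.30), and 7 fell (median -0.18), among them Lss (-0.56), Fdps (-0.45) and Dhcr7 (-0.44). Cyp51 (-0.44) and Idi1 (-0.49) fell in the Miwi2 line (median -0.09). With age, 5 rose and 10 fell in Morc1 tg/+ testes (median -0.37), and 4 rose and 3 fell in Morc1 tg/tg testes (median -0.09). These genes are active in most cells, so that their values in whole testis are not those of Leydig cells.

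Markers of fetal Leydig cells and of the adrenal cortex, whose cells also make steroids, were read as well. The 3 fetal Leydig genes summed to 8.32 to 49.1 RPKM over the 27 libraries, 2 of them were tested, and Thbs2 rose in Dnmt3l-/- testes (0.47) and fell with age in both Morc1 genotypes (-1.85 and -1.69), with none called in the other mutant comparisons. Ren1, the other tested gene, was at 0.05 (adjusted p 0.786) and 0.25 (adjusted p 0.229) with age and was called in no comparison of mutants. The 4 adrenal genes summed to 1.13 to 8.73 RPKM over the 27 libraries. Most of this was Akr1b7, which reached 6.55 RPKM, and Cyp21a1, at 0.319 to 2.44 RPKM. Of the other 2, Cyp11b1 stayed under 1 RPKM in every library and Cyp11b2 reached at most 0.113 RPKM, against 26.1 to 78.4 RPKM for Cyp11a1. Akr1b7 rose in Morc1 tg/tg testes at P10.5 (0.62) and in Dnmt3l-/- testes (0.80), and Cyp11b1 fell by 3.04 in Morc1 tg/tg testes at P14.5. With age, Cyp21a1 was at -1.56 and -1.57 and Akr1b7 at -0.84 and -0.71 in Morc1 tg/+ and Morc1 tg/tg testes, and all 4 values passed. Cyp11b1 was at -0.55 (adjusted p 0.132) and -3.58 (adjusted p 0.000167).

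The markers of other testis cells are given as counts, in the order Morc1 tg/tg at P10.5, Morc1 tg/tg at P14.5, Dnmt3l-/- and labelled Miwi2 KO. Of all genes, 6.08%, 14.8%, 24.9% and 0.725% rose and 9.26%, 20.1%, 29% and 0.506% fell, and the counts are to be read against these shares. Of 11 Sertoli cell genes 4, 8, 6 and 0 rose and none fell. Of 8 genes of meiosis all fell in the first 3 comparisons and none was called in the last, and of 8 germ cell genes 6, 5, 7 and 0 fell, with 1 that rose in Dnmt3l-/- testes. Of 5 stroma genes 1, 1, 5 and 0 rose, of 6 endothelial genes 2, 0, 3 and 0, of 6 macrophage genes 3, 0, 2 and 1, of 6 peritubular genes 1, 0, 1 and 0, and of 3 blood genes 0, 0, 0 and 1, with 2 peritubular genes that fell in Dnmt3l-/- testes. Of the 5 fat genes, 2, 2, 2 and 4 passed the low-count filter, and 3 fell in the libraries labelled Miwi2 KO and 1 rose at P14.5. Of the 5 epididymal genes, 0, 0, 2 and 1 passed it, and 2 fell in Dnmt3l-/- testes and 1 rose in the libraries labelled Miwi2 KO. All list counts used the same scaling as the tests of the 10 genes, and were not repeated with Sertoli cell scaling.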

How the data were processed

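RNA of single mice was sequenced from whole testis with a poly(A) kit (27 libraries, 22509570 to 42137954 reads on genes) and from sorted germ cells with a kit for degraded RNA and ribosomal RNA depletion (20 libraries, 2413679 to 14918478). The authors trimmed reads to 50 bases, removed ribosomal reads, mapped to mm9 keeping unique hits with up to 2 mismatches, and deposited raw read counts per gene made with HTSeq, together with RPKM values per gene and library. The submitters' processing notes also name Bowtie, and strand use in counting was not given in the sources used here. Small RNA tables were not used here.

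Levels are the deposited RPKM values. Counts were tested with edgeR 4.0.16 (R 4.3.3; TMM, filterByExpr, quasi-likelihood F test), where the study used DESeq, p-values adjusted by Benjamini-Hochberg over every gene in the fit and calls at an adjusted p under 0.05. Wild-type and heterozygous P10.5 libraries of a line were joined as controls, without the preliminary libraries. The alternatives were DESeq2 1.42.0, RLE scaling, no low-count filter, size factors from the Sertoli cell genes, the replicate number as a block, other control sets and each library left out. Correlations used log2(RPKM + 1), and most similar genes had a mean RPKM of at least 1. The fit was tested on simulated data. No 2 libraries of a group agreed within sampling noise (lowest chi-square per gene 4.45 over 38 pairs). The 10 genes, the lists of pathway genes (cholesterol supply, electron transfer, further steroid enzymes with Ptgds, regulators and signals) and the cell type markers were chosen with earlier results of these data known. By the rule for named genes, the 10 genes are named in the mutant and age comparisons and list genes where called in a mutant comparison (Cyp21a1 and Ren1 were added after their values were seen), beside the 10 genes most like the mean of the members and the 2 most like each. Floors of 3 reads cover counting error only.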

Additional observations from a re-analysis of the deposited data

Results flagged for a closer look

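The difference between mutant and control testes at P10.5 was not the same in the Morc1 and Dnmt3l lines for 3 of the 10 genes by an interaction test (edgeR), which 17.6% of all genes passed. Hsd17b3 had the largest gap, with a Morc1 difference lower than the Dnmt3l difference by a log2 value of -1.40, followed by Akr1c14 (-0.77) and Nr5a1 (-0.43). The Akr1c14 call ended without any 1 of 7 libraries, with the replicate number as a block (adjusted p 0.0811) and with Sertoli cell scaling (adjusted p 0.154), and that of Nr5a1 with Sertoli cell scaling (adjusted p 0.246). The strain of the Dnmt3l line was not given, and line and allele cannot be told apart.

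In sorted germ cells at P10.5, 2 genes had reads in only 1 of the 4 Morc1 tg/+ libraries. Hsd3b1 was at 0.144 RPKM in replicate 4, and Hsd3b6 was at 0.0343 RPKM in replicate 3, which is 1 read. With the other 3 libraries at 0, any single read makes a library the farthest from the rest, so that these values do not show a library that stands apart.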

How the results depend on the processing

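Of 1280 values of single genes under an alternative, 1118 kept their direction and call, 36 lost and 54 gained a call with the same direction, 71 uncalled values changed sign, and 1 lost its call with the sign turned, that of Nr5a1 in Morc1 tg/tg testes at P10.5 (-0.03445 with Sertoli cell scaling). Leaving out 1 library gave 1 to 4 called genes of 10 for the Morc1 line at P10.5 (3 with all), 1 to 3 at P14.5 (1), 4 to 5 for the Dnmt3l line (4), 1 to 4 for the Miwi2 line (1), 0 to 4 for Morc1 heterozygotes against wild types (0), 5 to 7 and 5 to 8 for age (6 and 7), 0 to 1 for the day interaction (0) and 2 to 4 for the line interaction (3). The share of all genes called moved with them, from 6.05% to 15.4%, 22.7% to 32.3%, 44.1% to 56.2%, 2.09% to 5.85%, 0.0129% to 2.91%, 37.5% to 51.7% and 28.6% to 38.3%, 4.88% to 11%, and 10.9% to 25.1%. Where 1 library was left in a group, as in the Miwi2 line and at P10.5 in the Morc1 tg/+ test of age, it was assumed to vary like the others. The calls of those fits are not to be relied on. With Sertoli cell scaling, 0 were called at P14.5, 2 in the Dnmt3l line, 0 in the Miwi2 line, 1 between Morc1 heterozygotes and wild types and 1 in the line interaction. DESeq2 called 3 in the Miwi2 line, and without a filter 2 were called between Morc1 heterozygotes and wild types. RLE scaling moved none of these counts by over 1.5 times. Over all genes, calls in the Morc1 line at P10.5 were 2326, against 7173 with Sertoli cell scaling, 1200 with the block, 1247 without Morc1 tg/+ replicate 3 and 1533 and 922 without Morc1 tg/tg replicates 2 and 3. At P14.5 they were 5323, against 8134 with Sertoli cell scaling and 3517 without Morc1 tg/+ replicate 3. In the Miwi2 line they were 197, against 406 with DESeq2 (116 higher and 290 lower), 51 with Sertoli cell scaling, 4503 with the block, 421 and 952 without heterozygous replicates 1 and 2, and 340 and 343 without Miwi2 KO replicates 1 and 2. In the line interaction they were 2797, against 1701 and 1689 with Sertoli cell scaling and the block, 1817 without Dnmt3l-/- replicate 2, and 1755 and 1753 without wild-type and Morc1 tg/tg replicate 1 of the Morc1 line. In the day interaction they were 1287, against 772 without P14.5 Morc1 tg/+ replicate 3. Between Morc1 heterozygotes and wild types they were 2, against 119 without a filter, 36 with Sertoli cell scaling and 441 without Morc1 tg/+ replicate 3, and between Dnmt3l heterozygotes and wild types 0 to 4 under the alternatives. Sertoli cell scaling gave 1184 higher and 5290 lower calls with age in Morc1 tg/tg testes (3007 and 3205 otherwise) and 63 and 1381 in the day interaction (233 and 1054), where DESeq2 gave 500 and 1162.

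Whether the replicate numbers of the labels pair the samples could not be decided in any line. In the Morc1 line, the paper took heterozygous littermates of the mutants as controls, and the labels name no litter. With so few libraries a group, residuals are tied to each other through the group mean, so that their correlations cannot exclude pairing. The residuals of same-numbered libraries correlated at -0.22 to -0.05 in the Morc1 line at P10.5, -0.11 to 0.35 at P14.5 and -0.46 to 0.25 in the Dnmt3l line. In the Miwi2 line they correlated at 0.32 and those of different numbers at -0.32. With only 2 libraries a group, these residuals mirror each other and cannot show whether numbers pair. With the number as a block, 7 genes were called in the Miwi2 line, 1 in the day interaction (Hsd3b6, adjusted p 0.0328), 2 at P10.5 and 1 at P14.5 in the Morc1 line, 4 in the Dnmt3l line, 8 and 7 with age, and 2 in the line interaction. The shares of all genes in these fits were 28.1%, 6.61%, 7.91%, 33%, 50.9%, 45.9% and 40.4%, and 10.6%. In the Miwi2 line the fit with the block has 4 libraries and 1 residual degree of freedom, so that its p-values are not to be relied on. The comparison of Morc1 heterozygotes with wild types shares too few numbers for a block. Depth limits Insl3 (22 to 119 reads in a testis library) and Hsd3b6 in the Morc1 line at P10.5 (12 to 73 reads in the libraries tested), and the Miwi2 comparison rests on 2 libraries a group.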

Other observations

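The 10 genes most like the mean of the members over the 27 testis libraries were, after Oxtr, Tenc1 and Fam129a, Boc (0.69), Paqr6 (0.68), Lum (0.68), Mblac1 (0.68), Rims4, Slc1a3 and Fancb (0.67). Oxtr encodes the oxytocin receptor, and Lum the matrix protein lumican, a marker of stroma. For single members, the second most similar genes were Fndc4 (0.82) for Cyp11a1, Boc (0.91) for Hsd3b1, Prkar2b (0.71), a subunit of protein kinase A, for Cyp17a1, Dmrtc1b (0.95) for Hsd3b6, Aqp12 (0.98) for Hsd17b3, Ctif (0.97) for Nr5a1, Gucy1a3 (0.95) for Akr1c14, Pdgfd (0.84) for Lhcgr and Mthfd1 (0.74) for Insl3.

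In the preliminary libraries of the Morc1 line at P10.5, which entered no mutant comparison above, Star was at 13.3 RPKM in the wild type and 10.6 RPKM in the heterozygote, Cyp17a1 at 49.4 and 30.0 RPKM, and Hsd17b3 at 55.3 and 37.9 RPKM. With them added as controls, 3 of the 10 genes were called in Morc1 tg/tg testes at P10.5, where 17.2% of all genes passed. With heterozygotes alone as controls 2 were, where 10.3% of all genes passed, Lhcgr being lost (adjusted p 0.054).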
